A study of Mus musculus with 8 samples.

Results

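Aminoacyl-tRNA synthetases were followed through the first days of reprogramming of mouse cells with and without CSA. The 35 genes comprise 19 that encode cytosolic enzymes and 16, with symbols ending in 2, that encode the mitochondrial ones, out of 18193 genes with a probe set of their own on the array. A gene's probe sets were those to which the platform annotation gives its symbol and no other, under the current name or the older one without the final 1, and the probe set with the highest mean over the 8 arrays represented the gene. All 35 members were found, and all passed the filter on low signals described below, which 12529 genes passed. The cells had a C57BL/6 background and carried a secondary OSKM system, in which doxycycline, written as 2 mg/ml in the labels, turns on Oct4, Sox2, Klf4 and Myc. The medium, shared by all groups, was that for embryonic stem cells, with leukemia inhibitory factor at 100 units/ml and 15% serum. Treated cells received CSA, cyclosporin A, written as 10 mM, a ligand of cyclophilins that blocks the phosphatase calcineurin, and control cells received the solvent DMSO. Arrays were run at day 3 and day 6, with 2 biological repeats in each of the 4 groups, which limits the precision of every value. Both doses are printed in the labels' units, which could not be checked here and may be errors for smaller ones. The labels give neither the starting cell nor the clone. In single arrays the pluripotency markers had a mean log2 signal between 5.76 and 7.13, and Nanog, Sox2 and Zfp42 of these 8 markers were below the filter.

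Aminoacyl-tRNA synthetases join each amino acid to its tRNA at the cost of ATP and so supply the ribosome with its substrates. Nuclear genes encode separate enzymes for the cytosol and for the mitochondrion, while Gars1 and Kars1 each give rise to both forms, and part of the cytosolic enzymes is held in a multisynthetase complex on the scaffold proteins Aimp1, Aimp2 and Eef1e1. Many cytosolic synthetase genes are known targets of ATF4, a transcription factor whose translation increases when kinases phosphorylate the initiation factor eIF2 alpha, and which binds the C/EBP-ATF response element.

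Because that element is a known feature of these promoters, windows from 250 bases before to 50 after the gene start were taken from RefSeq (GRCm38.p6), and the promoter table used here held 26 of the 35 members. Cars1, Hars1, Lars1, Nars1, Rars1, Vars1, Wars1, Hars2 and Pars2 were not searched, and 5 of these 9 are among the genes that rose with CSA. The core letters TGATGNAA, which read TTGCATCA or TTTCATCA where the match lies on the other strand, were searched on both strands. They occurred in 5 of 12 cytosolic members (Aars1, Gars1, Iars1, Tars1 and Yars1), in 0 of 14 mitochondrial members and in 4.51% of all 27025 genes of the table. A gene with several windows was counted if any of them held the letters. The 250 bases before the start are shown 5′ to 3′ for 4 genes, with the match in capitals. Aars1 and Tars1 rose with CSA at both days and hold it, at 112 and 15 bases before the start, and Aars1 has a second match 10 bases after the start. Gars1 rose at day 3 and holds it 30 bases before the start, and Sars1 rose at both days without a match in its window. Gars1 and Sars1 were added after their values were seen.
Aars1, chr8:111033592-111033841, plus strand: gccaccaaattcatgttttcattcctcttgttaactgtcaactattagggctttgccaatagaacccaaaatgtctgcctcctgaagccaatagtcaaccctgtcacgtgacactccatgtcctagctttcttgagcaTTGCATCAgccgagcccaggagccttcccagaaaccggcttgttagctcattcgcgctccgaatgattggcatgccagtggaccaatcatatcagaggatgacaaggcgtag
Tars1, chr15:11399659-11399908, minus strand: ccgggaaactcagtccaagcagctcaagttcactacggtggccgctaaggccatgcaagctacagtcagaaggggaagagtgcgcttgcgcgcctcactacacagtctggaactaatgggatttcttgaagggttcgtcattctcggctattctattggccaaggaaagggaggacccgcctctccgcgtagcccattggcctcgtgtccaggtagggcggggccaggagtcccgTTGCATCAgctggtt
Gars1, chr6:55037751-55038000, plus strand: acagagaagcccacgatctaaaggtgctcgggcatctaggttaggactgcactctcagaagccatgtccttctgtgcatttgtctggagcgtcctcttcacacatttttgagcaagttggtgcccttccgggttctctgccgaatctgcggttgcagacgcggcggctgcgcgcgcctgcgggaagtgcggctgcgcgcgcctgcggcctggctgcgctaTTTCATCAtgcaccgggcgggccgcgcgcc
Sars1, chr3:108445260-108445509, minus strand: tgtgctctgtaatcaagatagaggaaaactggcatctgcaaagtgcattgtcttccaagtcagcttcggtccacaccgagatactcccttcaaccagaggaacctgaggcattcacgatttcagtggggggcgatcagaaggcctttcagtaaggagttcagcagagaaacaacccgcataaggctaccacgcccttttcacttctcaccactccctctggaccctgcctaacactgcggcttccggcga
A match is a description of the letters and was not tested as a binding site. Among the 12 cytosolic members with a window, the 5 that hold the core had a median CSA effect of 0.28 at day 3 and 0.12 at day 6 on the log2 scale, and 3 and 2 of them rose. The 7 that do not hold it had medians of 0.09 and 0.08, and 2 and 1 rose. These medians describe few genes and were not compared by a test. Iars1 and Yars1, whose matches lie after the start, did not pass the test at either day, while Eprs1 rose at day 3 with no match. The E-box CACGTG occurred in 4 of 12 cytosolic members (Aars1, Farsb, Iars1 and Tars1), in Ears2 among 14 mitochondrial members and in 8.09% of all genes of the table. The core of the NRF1 site occurred in 3 of 12 cytosolic members (Farsb, Kars1 and Tars1), in 2 of 14 mitochondrial members (Iars2 and Mars2) and in 5.19% of all genes of the table.

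At day 3 many cytosolic synthetases rose with CSA and none of the mitochondrial ones did. Of 19 cytosolic genes, 9 rose and 0 fell, which is 47.4% beside the 7.14% of all 12529 tested genes that rose. Their median difference, CSA minus DMSO, was 0.26 on the log2 scale, with a range from -0.25 to 1.14, beside -0.00 for all genes. Of 16 mitochondrial genes 0 rose and 1 fell, Ears2, beside 5.52% of all genes that fell, and 5 of the 16 had an unadjusted p below 0.05 in either direction, beside 29% of all genes. Their median difference was -0.13. Both arrays with CSA lay above both with DMSO for 14 cytosolic and 4 mitochondrial members, beside 28.2% of all genes. They lay below for 2 cytosolic and 6 mitochondrial members, beside 28.3% of all genes. These calls come from limma, with 1 mean per group fitted to all arrays and p-values adjusted over 27022 probe sets.

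The plot of CSA effects by gene shows both classes at both days.

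**Figure D1:**
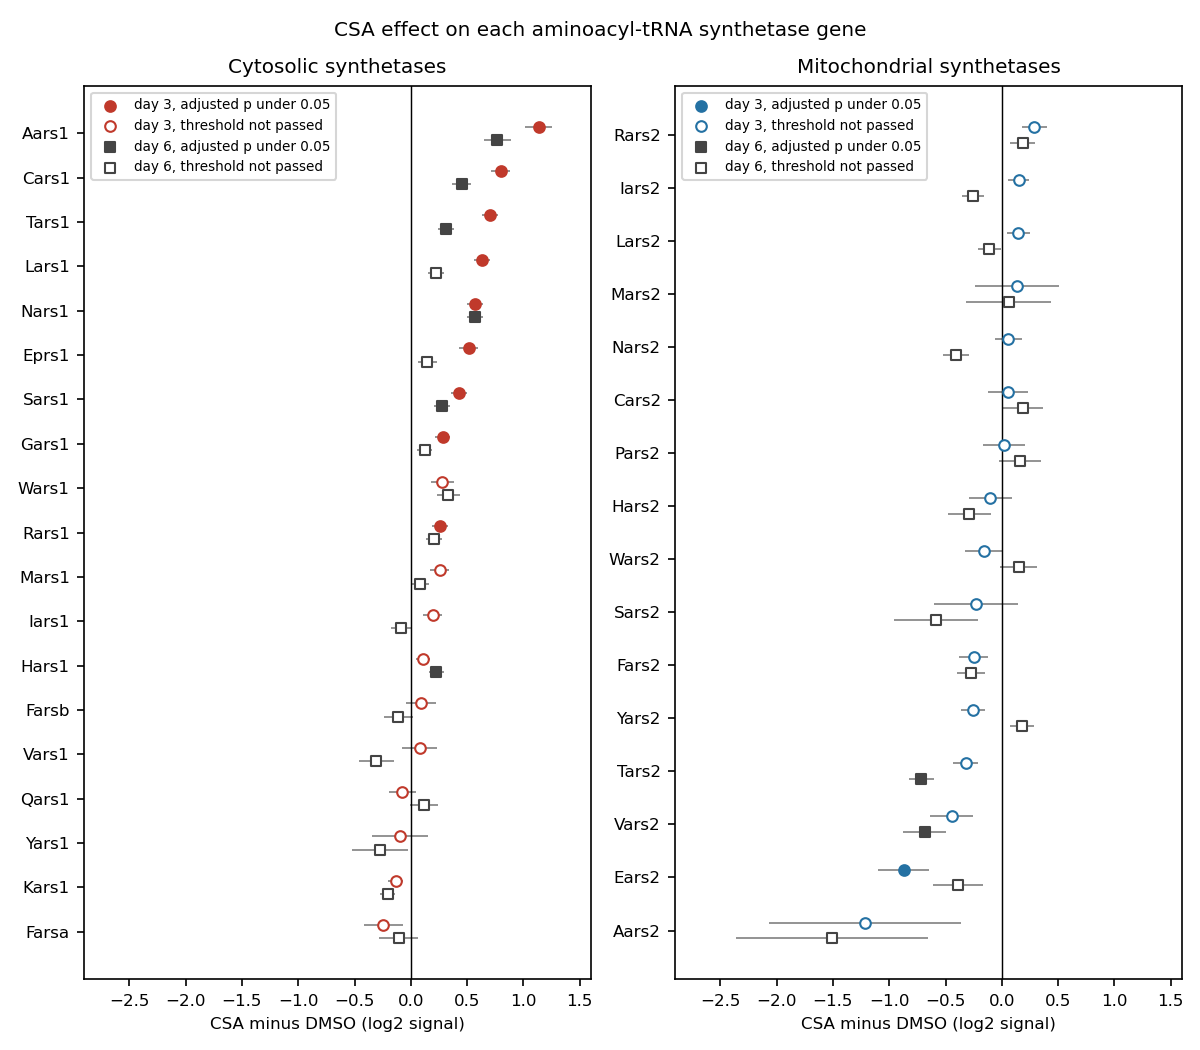
Difference in log2 signal, CSA minus DMSO, for each synthetase gene at day 3 (circles) and day 6 (squares), with the standard error of the fit as a horizontal line (2 arrays per group). Filled symbols passed the adjusted threshold of 0.05: 9 cytosolic genes at day 3 and 6 at day 6 lie to the right of 0, and 1 and 2 mitochondrial genes lie to its left.

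Signal brightness differed between the classes, which bears on how small a change could be called. The cytosolic members had a median standard error of 0.08 and the mitochondrial ones 0.17 on the log2 scale. Of the 4494 genes at least as bright as the dimmest cytosolic member 12.2% rose and 9.3% fell at day 3. For the 10903 genes at least as bright as the dimmest mitochondrial member these shares were 8.08% and 6.24%.

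Aars1, which charges alanine, had the largest rise. Its log2 signals were 10.63 and 10.98 with DMSO at day 3, 12.03 and 11.85 with CSA at day 3, 10.97 and 10.90 with DMSO at day 6, and 11.57 and 11.84 with CSA at day 6. All 4 CSA arrays were above all 4 DMSO arrays. The difference was 1.14 ± 0.12 (SE, n = 2 per group) at day 3, a 2.20-fold rise with adjusted p = 0.00028 by limma, and 0.77 ± 0.12 at day 6, 1.70-fold with adjusted p = 0.00239. A second probe set of the gene rose by 0.77 and 0.61.

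Cars1, the enzyme for cysteine, stood at 9.94 and 9.99 with DMSO and 10.79 and 10.73 with CSA at day 3, and at 9.99 and 9.97 with DMSO and 10.43 and 10.43 with CSA at day 6. The DMSO arrays of both days lay close together and below every CSA array. Its rise was 0.80 ± 0.09 at day 3 (adjusted p = 0.000295) and 0.45 ± 0.09 at day 6 (adjusted p = 0.008). The day 6 call was lost without DMSO day 6 replicate 2 (adjusted p = 0.0575), within a range of 0.00357 to 0.0625 over the alternatives.

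Tars1, the threonine enzyme, stood at 11.65 and 11.57 with DMSO and 12.34 and 12.28 with CSA at day 3, and at 11.34 and 11.25 with DMSO and 11.61 and 11.61 with CSA at day 6. Within each day the groups did not overlap, and the CSA arrays of day 6 were at the level of the DMSO arrays of day 3. The rise was 0.70 ± 0.07 at day 3 (adjusted p = 0.0002) and 0.32 ± 0.07 at day 6 (adjusted p = 0.0171). The day 6 call was lost without DMSO replicate 2 (adjusted p = 0.134), CSA replicate 1 (0.0615) or CSA replicate 2 (0.0696), within a range of 0.0089 to 0.14.

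Nars1, the asparagine enzyme, stood at 12.41 and 12.32 with DMSO and 12.99 and 12.88 with CSA at day 3, and at 11.84 and 11.71 with DMSO and 12.34 and 12.35 with CSA at day 6. Both treatments were lower at day 6, by the same distance, and CSA was above DMSO in each. The rise was 0.57 ± 0.07 at day 3 (adjusted p = 0.000696) and 0.57 ± 0.07 at day 6 (adjusted p = 0.000663). Its second probe set rose by 0.54 and 0.51.

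Sars1, which charges serine, stood at 11.90 and 12.00 with DMSO and 12.37 and 12.38 with CSA at day 3, and at 12.09 and 12.10 with DMSO and 12.29 and 12.46 with CSA at day 6. The CSA arrays of the 2 days covered one range, above all DMSO arrays. Its rise was 0.43 ± 0.07 at day 3 (adjusted p = 0.00462) and 0.28 ± 0.07 at day 6 (adjusted p = 0.0388), and its second probe set rose by 0.34 and 0.31. The day 6 call was lost without DMSO replicate 1 (adjusted p = 0.158), DMSO replicate 2 (0.157) or CSA replicate 2 (0.226), within a range of 0.00894 to 0.226.

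**Figure D2:**
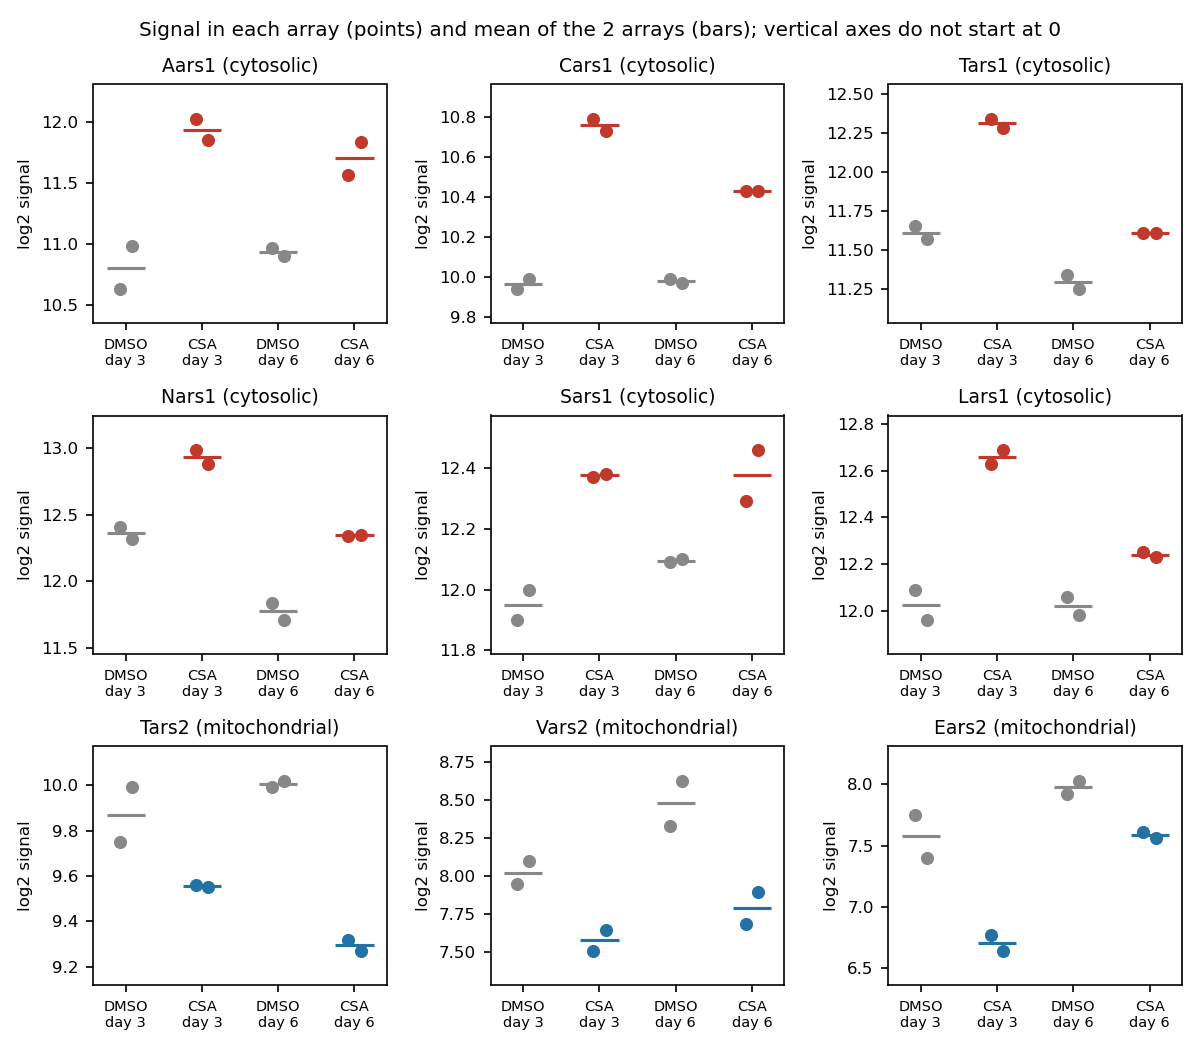
Log2 signal of 9 synthetase genes in each array (points), with the mean of the 2 arrays of a group (bars), by treatment and day; each panel has its own vertical scale, which does not start at 0. In the 6 cytosolic panels (upper rows) the CSA arrays lie above the DMSO arrays of the same day, and in the 3 mitochondrial panels (lower row) they lie below them.

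The other 4 cytosolic genes that rose at day 3 did not pass at day 6. Lars1, the leucine enzyme of the complex, stood at 12.09 and 11.96 with DMSO and 12.63 and 12.69 with CSA at day 3, and at 12.06 and 11.98 with DMSO and 12.25 and 12.23 with CSA at day 6. The control arrays of the days overlapped, and all 4 CSA arrays lay above them. The difference was 0.63 ± 0.07 at day 3 (adjusted p = 0.000369) and 0.22 ± 0.07 at day 6 (adjusted p = 0.0783). Eprs1, a fused enzyme that charges glutamate and proline, rose by 0.51 ± 0.08 at day 3 (adjusted p = 0.00341) and differed by 0.14 at day 6 (adjusted p = 0.342). At day 6 another of its probe sets rose by 0.30 (adjusted p = 0.0414), while its remaining tested probe sets had 0.16 and 0.26 and did not pass. Gars1, for glycine, rose by 0.28 ± 0.07 (adjusted p = 0.019) and Rars1, for arginine, by 0.26 ± 0.07 (adjusted p = 0.0388) at day 3. Both calls were lost when any 1 of the 4 arrays of day 3 was left out, with adjusted p from 0.0553 to 0.161 for Gars1 and from 0.1 to 0.226 for Rars1. Over the alternatives these values ranged from 0.00579 to 0.187 and from 0.0225 to 0.226.

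Cytosolic members without a call at day 3 included Farsa, a subunit of the phenylalanine enzyme, with the largest decrease in value. It stood at 10.28 and 10.59 with DMSO and 10.26 and 10.12 with CSA, a difference of -0.25 ± 0.17 (adjusted p = 0.449). The arrays of the groups nearly touched. The 95% intervals of the fit, without adjustment, ran from -0.63 to 0.13 for Farsa and from -0.28 to 0.01 for Kars1, the lysine enzyme. Iars1 and Wars1, for isoleucine and tryptophan, had differences of 0.19 and 0.28 that did not pass, while another probe set of each rose, by 0.39 for Iars1 and 0.51 for Wars1 (adjusted p = 0.0132 for each).

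At day 6 a larger share of the cytosolic class than of all genes rose again, with a smaller median difference. Of 19 genes 6 rose and 0 fell, which is 31.6% beside 6.41% of all genes, and the median difference was 0.14 beside -0.01 for all genes. The groups did not overlap for 11 members that were higher and 2 that were lower, beside 27.8% and 30.2% of all genes. Of genes as bright as the dimmest cytosolic member 10.7% rose. Hars1, the histidine enzyme, passed only at day 6. It stood at 12.18 and 12.08 with DMSO and 12.37 and 12.35 with CSA, without overlap. Its rise was 0.23 ± 0.06 (adjusted p = 0.0432), beside 0.11 at day 3 (adjusted p = 0.35), and the test of the difference between the days gave adjusted p = 0.514. Leaving out any 1 of the 4 arrays of day 6 lost the call, with adjusted p from 0.0753 to 0.266, within a range of 0.0199 to 0.266 over the alternatives.

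Vars1, the valine enzyme, had the largest decrease in value among the cytosolic members at day 6. Its signals were 10.31 and 10.08 with DMSO and 9.71 and 10.07 with CSA, a difference of -0.31 ± 0.16 (adjusted p = 0.266). The higher CSA array was level with the lower DMSO array.

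The 5 genes Aars1, Cars1, Nars1, Sars1 and Tars1 rose at both days. All 5 are cytosolic, and 2.07% of all genes rose at both days. A further 5 rose at 1 day alone, and 9 of 19 passed at neither (Farsa, Farsb, Iars1, Kars1, Mars1, Qars1, Vars1, Wars1 and Yars1). For Wars1 the day 6 difference was 0.33 (adjusted p = 0.0667), while another probe set rose by 0.415 (adjusted p = 0.0277). Its remaining tested probe sets had 0.19 and 0.52 at day 6 and did not pass. Counted without Gars1 and Kars1, which also make the mitochondrial enzyme, 8 and 6 of 17 rose.

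Enzymes of the multisynthetase complex and free enzymes were set side by side as a description. Of the 7 complex members (Eprs1, Iars1, Lars1, Mars1, Qars1, Rars1 and Kars1) 3 rose at day 3 and 0 at day 6. At day 6 3 of them had an unadjusted p below 0.05 in limma: Lars1 (0.22) and Rars1 (0.21) were higher and Kars1 (-0.20) was lower. When the tested probe sets of each gene were averaged, Lars1 passed as higher and Kars1 and Qars1 as lower at day 6. Of the 12 free enzymes 6 rose at each day. Of all genes 7.14% rose at day 3 and 6.41% at day 6, where 28.8% had an unadjusted p below 0.05. The median differences were 0.25 and 0.12 in the complex and 0.28 and 0.25 outside it, and the difference between these groups was not tested. By the 2 structural classes of catalytic domain, a split made after the values were seen, 3 and 1 of 9 class I enzymes rose and 5 and 5 of 9 class II enzymes, with Eprs1, which holds both domains, left out.

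Among the mitochondrial synthetases 10 of 16 had a negative difference at day 6, beside 6438 of 12529 tested genes. Of 16 genes 0 rose and 2 fell, Tars2 and Vars2, which is 12.5% beside 6.11% of all genes that fell, and 5 of the 16 had an unadjusted p below 0.05, beside 28.8% of all genes. The median difference was -0.27. The groups did not overlap for 9 members that were lower and 4 that were higher, beside 30.2% and 27.8% of all genes. Of genes at least as bright as the dimmest mitochondrial member 6.99% fell.

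Tars2 charges threonine in the mitochondrion, as Tars1 does in the cytosol. It stood at 9.75 and 9.99 with DMSO and 9.56 and 9.55 with CSA at day 3, and at 9.99 and 10.02 with DMSO and 9.32 and 9.27 with CSA at day 6. The CSA arrays were the lower ones at both days, with a wider gap at day 6. The difference was -0.32 ± 0.11 at day 3 (adjusted p = 0.0992) and -0.71 ± 0.11 at day 6 (adjusted p = 0.00212), and the day by treatment test gave adjusted p = 0.201. A second, dimmer probe set had differences of 0.27 and -0.48 that did not pass.

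Vars2, the mitochondrial valine enzyme, stood at 7.95 and 8.10 with DMSO and 7.51 and 7.65 with CSA at day 3, and at 8.33 and 8.63 with DMSO and 7.69 and 7.90 with CSA at day 6. The groups did not overlap at either day. Its difference was -0.45 ± 0.19 at day 3 (adjusted p = 0.186) and -0.69 ± 0.19 at day 6 (adjusted p = 0.0457), where its second probe set fell by 0.97 (adjusted p = 0.02). The day 6 call of the first was lost without any 1 of the 4 arrays of day 6, with adjusted p from 0.0793 to 0.277, within a range of 0.0141 to 0.277 over the alternatives.

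Ears2, the mitochondrial glutamate enzyme, stood at 7.75 and 7.40 with DMSO and 6.77 and 6.64 with CSA at day 3, and at 7.92 and 8.03 with DMSO and 7.61 and 7.56 with CSA at day 6. CSA was below DMSO at each day. The difference was -0.87 ± 0.23 at day 3 (adjusted p = 0.0322) and -0.39 ± 0.23 at day 6 (adjusted p = 0.334). The day 3 call was lost without DMSO replicate 1 (adjusted p = 0.157), CSA replicate 1 (0.0937) or CSA replicate 2 (0.144). A second probe set near the filter had a difference of 1.38 at day 3 (adjusted p = 0.386), and the mean of both was 0.25 (adjusted p = 0.777), the highest adjusted p in a range from 0.0211.

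Aars2, which charges alanine in the mitochondrion, had the largest decrease in value at both days and the widest spread. It stood at 6.17 and 7.61 with DMSO and 4.43 and 6.92 with CSA at day 3, and at 7.31 and 6.85 with DMSO and 6.70 and 4.45 with CSA at day 6. At each day 1 CSA array was far below the other, the groups overlapped at day 3, and the differences of -1.22 ± 0.85 and -1.51 ± 0.85 did not pass (adjusted p = 0.447 and 0.322).

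The largest positive differences in the mitochondrial class did not pass either. At day 3 this was Rars2, for arginine, at 9.66 and 9.74 with DMSO and 9.97 and 10.01 with CSA, a difference of 0.29 ± 0.11 (adjusted p = 0.139) without overlap. At day 6 it was Cars2, for cysteine, at 8.17 and 8.07 with DMSO and 8.52 and 8.10 with CSA, a difference of 0.19 ± 0.18 (adjusted p = 0.581), where the lower CSA array lay between the controls. Nars2, for asparagine, was at 9.11 and 9.06 with DMSO and 8.70 and 8.65 with CSA at day 6, a difference of -0.41 ± 0.12 just short of the threshold (adjusted p = 0.0512). In all, 13 of 16 mitochondrial members passed at neither day.

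Where an amino acid has 1 enzyme in each compartment, the pair could be set side by side. The CSA effect of the cytosolic enzyme was above that of its mitochondrial partner in 12 of 13 pairs at day 3 and in 12 of 13 at day 6, with a median distance of 0.49 and 0.33 on the log2 scale. These are differences of effects, not of levels, and no test was run over the pairs. The distance was 1.02 and 1.03 for threonine, 0.52 and 0.98 for asparagine, 0.66 and 0.86 for serine, and 2.35 and 2.28 for alanine, where the spread of Aars2 enters. The exceptions were arginine at day 3 (-0.03) and tyrosine at day 6 (-0.45). With the shared partners Farsa and Farsb against Fars2, and Eprs1 against Ears2 and Pars2, 16 and 15 of 17 pairs had the cytosolic effect above.

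**Figure D3:**
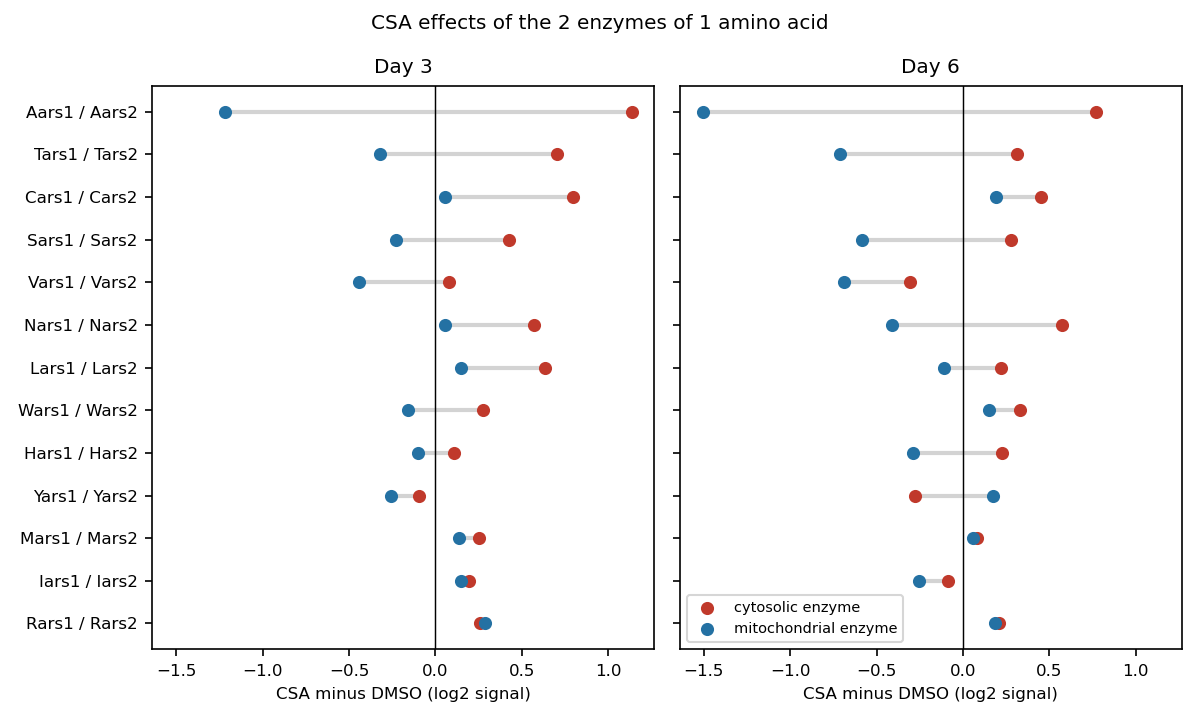
CSA effect, CSA minus DMSO in log2 signal, of the cytosolic (red) and the mitochondrial (blue) enzyme for the 13 amino acids with 1 gene of each kind, at day 3 (left) and day 6 (right). The red point lies to the right of the blue one in 12 of 13 pairs at each day, and the alanine and threonine pairs are the widest apart at day 6.

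The CSA effect at day 6 was below that at day 3 for 25 of the 35 members in value, beside 6341 of 12529 tested genes. The median difference of the members was -0.17, and the test of the difference between the days was passed by 1 member. Lars1 had an effect smaller by -0.41 ± 0.10 (adjusted p = 0.0438, limma interaction), beside 3.43% of all genes with a lower and 2.36% with a higher effect at day 6. The call held without DMSO day 3 replicate 1 (adjusted p = 0.0313) and was lost without any other array, with adjusted p from 0.0797 to 0.157. Over the alternatives its adjusted p ranged from 0.0274 to 0.251. Tars1 followed with -0.39 (adjusted p = 0.0559). No mitochondrial member passed (0 of 16 by limma, 4 at an unadjusted p below 0.05, beside 22.8% of all genes). The other genes that passed at a single day are not shown to differ between the days.

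Between day 3 and day 6 some cytosolic synthetases fell in each treatment, in DMSO at a share near that of equally bright genes. These comparisons use the same arrays as the CSA comparisons, so their values are given beside those and not as separate support. In DMSO 7 of 19 fell and 0 rose (8 at an unadjusted p below 0.05, as were 53.3% of all genes), beside 19.6% and 26.1% of all genes. They were Hars1 (-0.86), Farsa (-0.82), Nars1 (-0.59), Iars1 (-0.49), Kars1 (-0.44), Tars1 (-0.31) and Gars1 (-0.18). In CSA 12 fell and Qars1, the glutamine enzyme, rose by 0.34 (adjusted p = 0.0498), beside 15.8% and 20.2% of all genes. The 12 hold the same 7 genes and Cars1, Eprs1, Lars1, Rars1 and Vars1. The share of all genes that fell in both treatments was not counted. Of the 19 cytosolic members 36.8% fell in DMSO and 63.2% in CSA. Among genes at least as bright as the dimmest of them, 37.3% fell in DMSO and 32.2% in CSA. The count of 13 in CSA was 7 without CSA day 3 replicate 1 and 8 without CSA day 6 replicate 1.

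Mitochondrial members went both ways between the days. In DMSO Yars2 (-1.22), Wars2 (-0.56) and Cars2 (-0.50), the tyrosine, tryptophan and cysteine enzymes, fell and Iars2, for isoleucine, rose by 0.49. In CSA Yars2 (-0.79) and Nars2 (-0.70) fell and Ears2 rose by 0.88. Of the 16 members 18.8% fell and 6.25% rose in DMSO, beside 19.6% and 26.1% of all genes. The shares in CSA were 12.5% and 6.25%, beside 15.8% and 20.2% of all genes. The count of 4 in DMSO was 2 without DMSO day 3 replicate 2 or DMSO day 6 replicate 1. Array scaling matters here: quantile normalization moved the median of all genes from 0.08 to -0.03 in DMSO and from 0.08 to -0.02 in CSA. After it 3 cytosolic genes rose and 6 fell in DMSO, 1 rose and 9 fell in CSA, and the mitochondrial counts were 1 and 5 in DMSO and 0 and 5 in CSA. Under this scaling 21.3% of all genes rose and 22% fell in DMSO, and 15.8% and 15.5% in CSA. The median of the mitochondrial members in DMSO turned from 0.12 to -0.12.

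**Figure D4:**
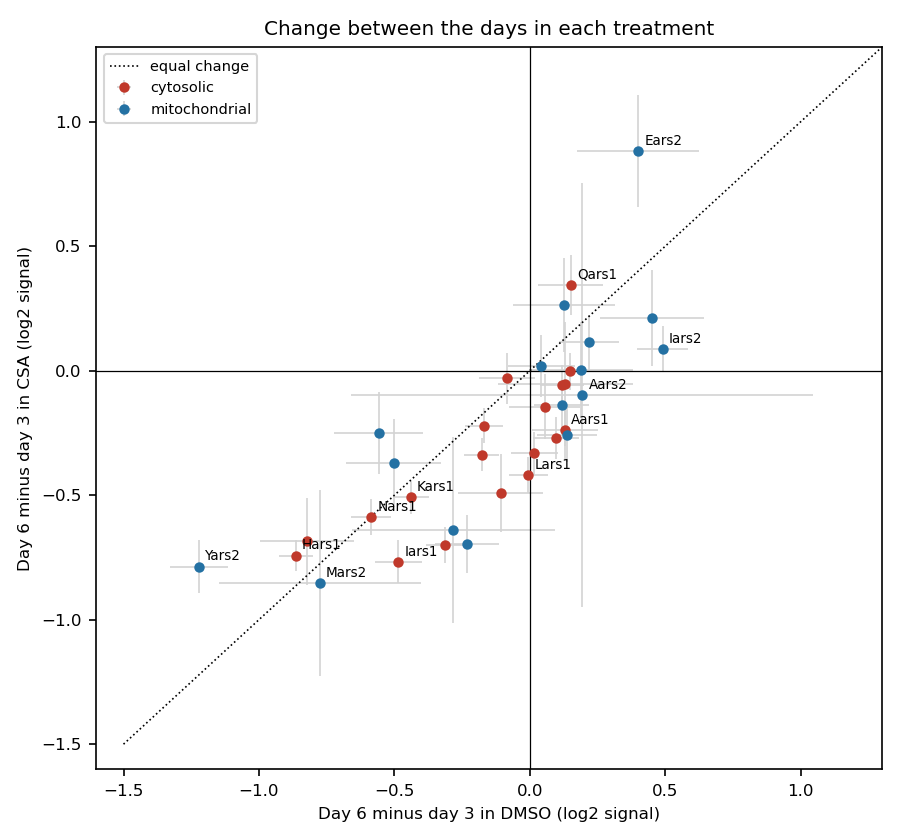
Change from day 3 to day 6 in log2 signal in DMSO (horizontal) and in CSA (vertical) for the cytosolic (red) and mitochondrial (blue) synthetases, with standard errors as grey lines (2 arrays per group) and a dotted line of equal change. Hars1, Farsa, Yars2 and Mars2 lie farthest to the lower left, Lars1 lies near 0 in DMSO and at -0.42 in CSA, and Ears2 has the highest value in CSA, 0.88.

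Other genes of tRNA charging and translation were counted from listed genes. Of 11 tested partners of the synthetases, among them the scaffold proteins of the complex, 0 passed for CSA at day 3 and 0 at day 6 by limma. At an unadjusted p below 0.05 there were 2 at each day, beside 29% and 28.8% of all genes. The medians of the partners were -0.10 and 0.03. Aimp1, Aimp2 and Eef1e1 differed by 0.14, -0.20 and -0.19 at day 3 without passing. Between the days Aimp2 and Eef1e1 fell by 1.01 and 0.97 in DMSO and by 0.69 and 0.89 in CSA.

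Of 18 genes of tRNA maturation and export, 2 rose and 1 fell at day 3, beside 7.14% and 5.52% of all genes. At day 6 0 rose and 2 fell, beside 6.41% and 6.11% of all genes. Xpot, the nuclear export receptor of tRNA, rose by 0.34 at day 3 (adjusted p = 0.0218), as did Alkbh8, which modifies the tRNA wobble base, by 0.52 (adjusted p = 0.0103). Tsen34, a subunit of the endonuclease that splices tRNA, fell by 0.43 and 0.40 (adjusted p = 0.0156 and 0.0242). Trit1, which modifies the base beside the anticodon, fell by 0.57 at day 6 (adjusted p = 0.0115).

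Of 27 cytosolic translation factors 1 passed for CSA against DMSO at each day: Eif4e, the cap-binding protein, fell by 0.25 at day 3 (adjusted p = 0.0495) and Eif5, an initiation factor, rose by 0.28 at day 6 (adjusted p = 0.0165). At an unadjusted p below 0.05 there were 10 and 7, beside 29% and 28.8% of all genes. Between the days 20 of the 27 fell in DMSO and 16 in CSA, beside 19.6% and 15.8% of all genes. For CSA, of 13 mitochondrial translation factors Tufm, the elongation factor, fell by 0.49 at day 3 (adjusted p = 0.0131), and 0 passed at day 6 by limma (2 at an unadjusted p below 0.05). Mitochondrial ribosomal protein genes had 11 of 76 lower and 0 higher at day 3, with a median of -0.15. At day 6 there were 3 lower and 0 higher, with a median of -0.08. Of all genes 5.52% were lower and 7.14% higher at day 3, and 6.11% and 6.41% at day 6. Mrpl20, Mrpl18 and Mrpl49 fell by 0.51, 0.44 and 0.57 at day 3, and Mrpl28 fell by 0.64 at day 6.

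Genes of the ATF4 pathway, which do not include the synthetases, had 24 of 28 higher and 0 lower at day 3, with a median of 0.64. At day 6 there were 15 higher and 1 lower, with a median of 0.59. The shares of all genes were 7.14% higher and 5.52% lower at day 3, and 6.41% and 6.11% at day 6. Earlier results on these arrays were known when the list was drawn up. Aldh1l2, a mitochondrial folate enzyme, rose by 3.92 and 1.98 on the log2 scale, and the transcription factor Atf5 rose by 2.26 and 2.06. Psph, the last enzyme of serine synthesis, rose by 1.69 and 1.27, and the stress protein gene Nupr1 by 1.32 and 1.31. Atf4 itself, named after its values were seen, rose by 0.62 (adjusted p = 0.000404) and 0.41 (adjusted p = 0.00434). Among 8 genes of the eIF2 alpha kinases and their regulators 3 rose at day 3, Eif2ak3, Ppp1r15a and Impact. At day 6 Impact rose by 0.76 (adjusted p = 0.000351) and Gcn1, a co-activator of the kinase Eif2ak4, fell by 0.59 (adjusted p = 0.0407).

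**Figure D5:**
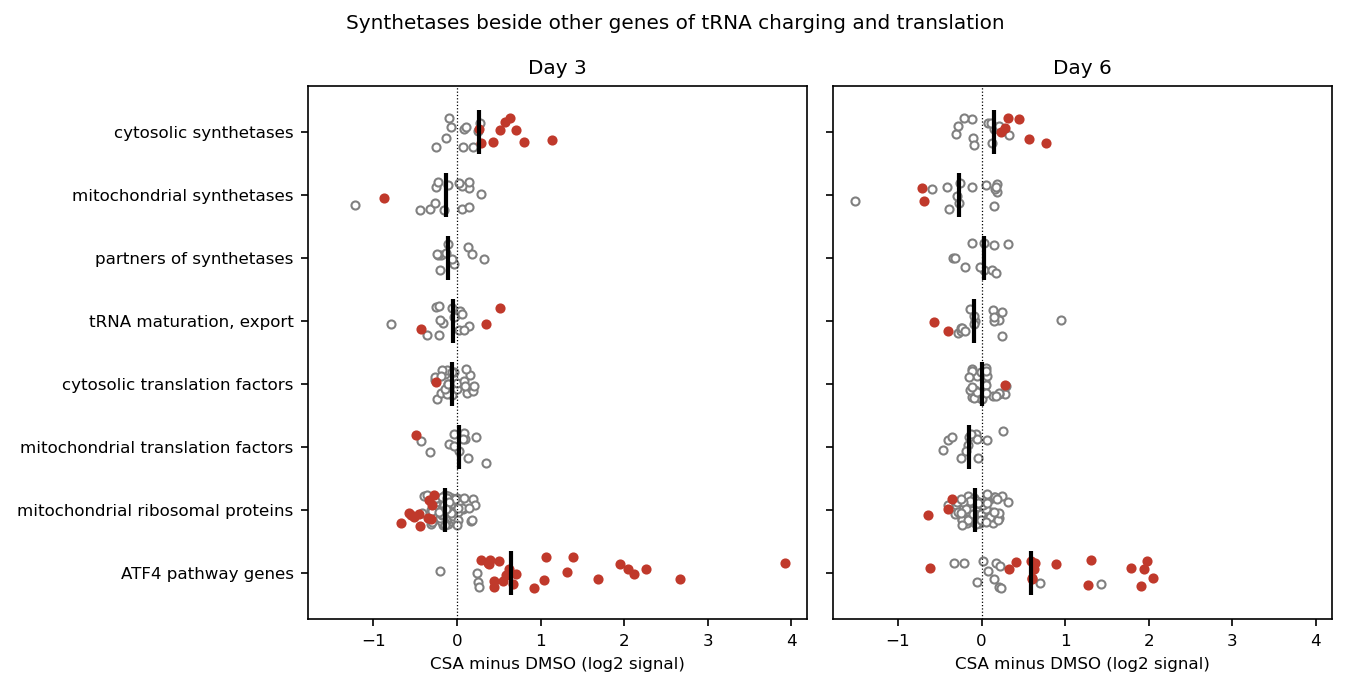
CSA effect, CSA minus DMSO in log2 signal, of every tested gene in 8 groups at day 3 (left) and day 6 (right); red points passed the adjusted threshold of 0.05, open points did not, and the black bar is the median. The cytosolic synthetases have a median of 0.26 and 0.14 and the ATF4 pathway genes of 0.64 and 0.59, while the medians of the other 6 groups lie between -0.27 and 0.03.

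Signals of cell type markers and of G2 and mitosis genes also differed between the groups, and their part in the synthetase values was not tested. In a bulk sample, fewer cells of a type and less RNA per cell cannot be told apart. The mean log2 signal of 8 fibroblast markers was 8.51 to 8.54 with DMSO and 8.69 to 8.80 with CSA at day 3, and 10.79 to 10.84 with DMSO and 10.25 to 10.26 with CSA at day 6. Of these 8 genes 1 rose and 1 fell at day 3, and 0 rose and 2 fell at day 6. Their differences ran from -0.31 to 0.76 at day 3 and from -2.57 to 0.15 at day 6. For 8 epithelial markers the mean was 8.80 to 8.92, 9.25 to 9.29, 10.87 to 10.96 and 10.58 to 10.61 in the same order of groups, with 4 genes higher at day 3 and 4 lower at day 6. Keratinocyte markers were higher with CSA at both days, at 8.50 to 8.88 against 9.01 to 9.14 and 8.69 to 8.83 against 9.72 to 9.80, with 3 and 2 of 6 tested genes called. Macrophage markers stood between 5.03 and 6.51 with 0 called of 4 tested by limma, Ptprc and Tyrobp being below the filter. Endothelial markers stood between 4.38 and 5.85, with 2 of 5 tested, of which Tek rose at day 6. Of 19 tested genes of G2 and mitosis 16 fell at day 3, with a median of -0.62, and 5 at day 6, with a median of -0.25. Beside all these counts, 7.14% of all genes rose and 5.52% fell at day 3, and 6.41% and 6.11% at day 6.

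With 1 prior variance for all signal levels in limma, instead of one that follows the signal, 4 of 19 cytosolic genes rose at day 3 (Aars1, Cars1, Lars1 and Tars1) and 0 at day 6, where 7 had an unadjusted p below 0.05. Under that setting 1.45% and 1.94% of all genes rose. The day 6 count of 6 was 2 without DMSO day 6 replicate 2 and 3 without CSA day 6 replicate 2, and it was 10, of which 8 rose and 2 fell, when the tested probe sets of a gene were averaged.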

How the data were processed

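Biotin-labelled cRNA from each of 8 samples was hybridised to an Affymetrix 3′ array, per the labels' protocols. The authors deposited log2 signals for 45037 probe sets. They were made with MAS5, per the submitters' processing notes, which scales each array by a constant. The sources used here give neither its version nor its scaling target. Median signals ran from 6.15 to 6.53, and 110 to 259 values per array were 0. The platform annotation gave 1 gene symbol to 34945 probe sets, several to 932 and none to 9160 that it did not list.

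The test covered the 27022 probe sets whose mean log2 signal reached 5.37, the 40th percentile. In limma 3.58.1 (R 4.3.3) the means of the 4 groups were estimated jointly from the 8 arrays (4 residual degrees of freedom), with empirical Bayes moderation that follows the signal level. Two-sided tests had Benjamini-Hochberg adjustment over the tested probe sets and a threshold of 0.05. Percentages of all genes refer to 12529 gene representatives. The pipeline was tested on simulated data. Alternatives changed the scaling, the prior variance, the filter, a pseudocount or floor, the choice of probe sets, the groups fitted, a replicate block and single arrays left out.

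Arrays of a group correlated at 0.968 to 0.974 and those of different groups at 0.918 to 0.963. Arrays of 1 group are independent biological repeats, per the series text. The members and lists were chosen with earlier results of these data known. Any member may be named; per-array values are given for genes that rose at both days, for the largest rise and fall of each class at each day, and for Lars1, Hars1, Tars2, Vars2, Ears2 and Nars2, chosen after their values were seen. Of other lists up to 4 genes with the smallest p are named, beside Aimp1.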

Additional observations from a re-analysis of the deposited data

Results flagged for a closer look

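The effect of CSA on Lars1, the cytosolic leucine enzyme, differed between the days by the interaction test: at day 6 it was -0.41 on the log2 scale relative to day 3 (adjusted p = 0.0438 by limma, 2 arrays per group). In 9 of 17 alternatives the call was lost: without the trend in the prior variance, without the filter on low signals, and without any 1 array other than DMSO day 3 replicate 1. The adjusted p ranged from 0.0274 to 0.251. The CSA effect itself was 0.63 at day 3 and 0.22 at day 6. The control arrays of the 2 days stood at 12.09 and 11.96 and at 12.06 and 11.98.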

How the results depend on the processing

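Of 983 values of single genes under the alternatives, 879 kept their direction and their side of the threshold, 57 lost a call, 12 gained one, 2 turned sign with a call in either setting, and 33 changed sign without passing in either. The calls of Aars1, Cars1, Lars1 and Tars1 at day 3 and of Tars2 at day 6 held under every alternative run for them. Ears2 at day 3 turned to 0.25 (adjusted p = 0.777, range 0.0211 to 0.777) and Qars1 at day 6 to -0.45 (adjusted p = 0.0435) when a gene's tested probe sets were averaged; of the 4 probe sets of Qars1 the dimmest had -1.18. Without the trend in the prior variance the cytosolic calls were 4 at day 3, 0 at day 6 (7 at an unadjusted p below 0.05), 0 for the interaction (3) and 7 between the days in CSA; the mitochondrial calls were 0 at day 3 (3) and 1 at day 6. With no filter on low signals the mitochondrial calls were 0 at day 3 and 1 at day 6 and the cytosolic interaction calls 0. With only the compared groups in the fit, the mitochondrial calls were 0 at day 3 and 1 at day 6. Averaged probe sets gave 10 cytosolic calls at day 6 and 0 mitochondrial calls at day 3. Probe sets that can read several genes left out, 1 of 13 mitochondrial members passed at day 6. The cytosolic interaction calls were 2 with a filter at the 60th percentile, a pseudocount of 32, a floor at 5, averaged probe sets or the replicate block. Quantile normalization gave 5 mitochondrial calls between the days in CSA. Leaving out 1 array gave 7 cytosolic calls at day 3, 2 to 5 at day 6, 0 to 2 for the interaction, 6 to 7 between the days in DMSO and 7 to 10 in CSA; mitochondrial calls were 0 to 1 at day 3, 1 at day 6, 2 to 3 in DMSO and 2 to 3 in CSA. The counts with 1 array left out take calls in either direction, and the highest cytosolic count at day 6 holds a fall, that of Yars1. Its difference was -0.76 without CSA day 6 replicate 1, beside -0.28 with all arrays. The CSA arrays of Yars1 at day 6 stood at 10.31 and 9.36. Same-numbered replicates did not deviate together (correlations from -0.00 to 0.03). These correlations show no large shared shift, but they cannot tell whether same-numbered samples came from the same experiment. The replicate block left the cytosolic counts at 9 and 6 and the mitochondrial ones at 1 and 2 for CSA, and those between the days at 7, 13, 4 and 3. The cause of these shifts was not tested. With 2 arrays per group small differences are beyond reach, and dim probe sets such as Aars2 have wide errors.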
